A study of Mus musculus with 24 samples.

Results

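The genes described here are 10 markers of astrocytes, followed through RNA-seq of sorted cortical nuclei from mice lacking Kdm6b, which encodes a demethylase that removes the repressive histone mark H3K27me3. Slc1a2, Slc1a3, Gja1, Gjb6, Aqp4, Gfap, S100b, Aldoc, Aldh1l1 and Sox9 were taken by symbol from the 25135 genes listed in the expression tables, and all 10 were found at both ages. WT mice were Kdm6b wt/wt and Kdm6b-cKO mice were Emx1-Cre; Kdm6b f/f littermates on a C57BL/6 background. Both genotypes carried the SUN1-GFP reporter, a nuclear envelope tag that Cre switches on. The study's methods do not name Cre for WT, although sorting by this tag requires it. The labels call the genotypes wild-type and Kdm6b-KO. The Emx1 promoter restricts Cre to the progenitors of the dorsal forebrain, so the tag marks excitatory neurons and macroglia of the cortex and few interneurons. GFP-positive cortical nuclei were sorted (FANS) the day after birth (P1) or at 30 days of age (P30), giving 24 libraries, 6 for each genotype at each age. The labels do not say whether each library came from a separate animal, so p-values measure the spread between these libraries, which may be technical.

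Astrocytes clear glutamate and potassium from around synapses, are coupled to each other by gap junctions, and cover blood vessels with endfeet rich in the water channel aquaporin-4. In the cortex they arise from radial glia around birth, divide locally in the first postnatal weeks and then mature. Slc1a3, Sox9, Aldoc and Aldh1l1 are also active in radial glia, so at P1 their RNA need not come from astrocytes alone.

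To ask whether astrocyte gene expression differed between the genotypes, log2(FPKM + 0.1) was compared with limma at each age, where FPKM is fragments per kilobase of transcript, scaled to the fragments of the library. A gene was tested where it averaged 1 FPKM or more at that age, and a gene was called where its adjusted p was under 0.05 and its fold over 2. All 10 markers passed the filter at both ages. At P1, 8 of the 10 had a negative log2 fold change in Kdm6b-cKO, against 63.2% of the 16250 genes tested. Their median log2 fold change was -0.66, against -0.25 over all genes tested. Gfap, Gja1, Aqp4 and Slc1a3 were lower at an unadjusted limma p under 0.05, which is 4 of 10 markers against 7.77% of all genes. None of the 10 was called. Over all genes, 0 were called lower and 0 higher by limma (0.0% each), with 1263 below WT and 1089 above WT at p under 0.05 before adjustment, and the exact permutation test also gave 0 genes past the adjustment, with 2368 at an unadjusted p under 0.05. Quantile normalization moved the median of all genes at P1 to -0.11, and left the markers' median at -0.66. In nuclei pooled by sorting, fewer astrocytes and less RNA per astrocyte cannot be told apart.

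The libraries differed in depth. Among low genes the FPKM values are multiples of what 1 read is worth, which gives an effective depth if fragments of 200 bases are assumed. At P1 this depth was 815000 to 3910000 reads in WT and 192000 to 2850000 in Kdm6b-cKO, and at P30 it was 5120000 to 8320000 in WT and 1940000 to 8050000 in Kdm6b-cKO. Libraries are numbered 0 to 5 as in the tables. WT 4 and Kdm6b-cKO 0, 1 and 5 at P1, and Kdm6b-cKO 2, 3 and 4 at P30, had depths under 0.5 of the median of their age and are called shallow below. At P1, WT 2 to 5 and Kdm6b-cKO 5 listed 397 to 794 olfactory receptor genes with a value above 0, and the remaining 7 libraries 2 to 22. In the P30 set, WT 0 and Kdm6b-cKO 0, 1 and 5 had the 45S precursor of ribosomal RNA at 175 to 450 FPKM, and the remaining 8 at 1629 to 25878 FPKM. These splits were treated as batches. At P1 the 45S precursor was at 3423 and 3239 FPKM in the shallow Kdm6b-cKO libraries 0 and 1, which had the lowest Slc1a3, Aldoc and Gjb6 of all P1 libraries, and at 28.7 to 899 FPKM in the rest, so depth and 45S RNA cannot be told apart for these 2 libraries. Whole-gene Kdm6b was 24.9 to 51.0 FPKM in WT and 15.0 to 38.4 in Kdm6b-cKO at P1 (limma log2 fold change -0.41, adjusted p = 0.534), and 16.9 to 26.4 and 17.5 to 28.1 at P30 (0.12, adjusted p = 0.828). This value includes reads from exons outside any deleted stretch and does not check the deletion, so genotypes are given as labelled.

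**Figure D1:**
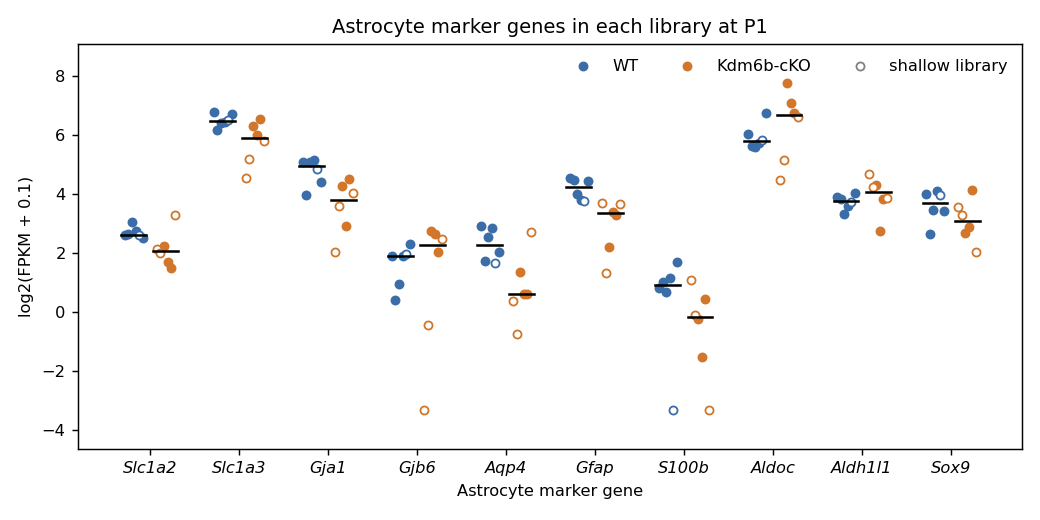
Level of each astrocyte marker in every P1 library, as log2(FPKM + 0.1); blue points are the 6 WT and orange points the 6 Kdm6b-cKO libraries, bars are group medians and open points are shallow libraries. The Gfap points do not overlap between the genotypes, and below every WT point sit 5 of the 6 Kdm6b-cKO points for Aqp4, 4 for Slc1a3 and 3 for Gja1.

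The promoter sequences of 4 of the markers are shown first. Those of Slc1a2, lower at P30, and of Aqp4, lower at P1, are not shown. Gfap, Gja1 and Slc1a3 were among the 4 lower at P1 and Gjb6 was the 1 that was higher at P30. Each run is the 250 bases before the RefSeq transcription start, taken from RefSeq windows of GRCm38.p6 and placed by a single exact match on NCBIM37 (mm9). CpG dinucleotides, the sites of DNA methylation and a feature of many Polycomb target promoters, are in capitals. RefSeq windows matched 8 of the 10 markers. The Gfap window lies at chr11:102758515-102758764 on the minus strand, inside the span of the longest gene model (chr11:102748650-102762226) but over none of its exons. The Gja1 window lies at chr10:56096856-56097105 on the plus strand and ends at the annotated start of the gene. The Slc1a3 window lies at chr15:8660808-8661057 on the minus strand and ends 44 bases upstream of the annotated start. The Gjb6 window lies at chr14:57752449-57752698 on the minus strand and ends at the annotated start.
Gfap: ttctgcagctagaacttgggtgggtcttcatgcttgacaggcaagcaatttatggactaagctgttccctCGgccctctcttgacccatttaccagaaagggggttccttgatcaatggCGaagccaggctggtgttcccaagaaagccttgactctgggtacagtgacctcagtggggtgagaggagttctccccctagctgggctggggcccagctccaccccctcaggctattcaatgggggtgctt
Gja1: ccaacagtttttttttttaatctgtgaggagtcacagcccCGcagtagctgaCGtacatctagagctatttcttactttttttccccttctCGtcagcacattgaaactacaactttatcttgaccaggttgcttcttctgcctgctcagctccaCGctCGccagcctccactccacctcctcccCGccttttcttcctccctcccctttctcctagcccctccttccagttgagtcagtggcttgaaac
Slc1a3: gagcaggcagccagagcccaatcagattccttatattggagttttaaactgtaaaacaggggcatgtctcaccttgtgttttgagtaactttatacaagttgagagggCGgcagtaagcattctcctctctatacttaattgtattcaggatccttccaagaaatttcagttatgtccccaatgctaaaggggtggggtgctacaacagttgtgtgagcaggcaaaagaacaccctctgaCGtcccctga
Gjb6: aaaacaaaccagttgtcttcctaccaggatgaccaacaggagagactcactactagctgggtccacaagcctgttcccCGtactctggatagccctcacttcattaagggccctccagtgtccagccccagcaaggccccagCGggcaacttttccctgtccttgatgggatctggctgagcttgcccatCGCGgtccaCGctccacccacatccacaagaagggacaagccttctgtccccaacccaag

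All 4 windows are poor in CpG or near the middle of all windows. Gfap and Slc1a3 hold 2 CpG each, Gjb6 5 and Gja1 6, against a median of 6 over the 32536 RefSeq windows of this length, with quartiles at 2 and 16. On both strands, TTGGC, the core letters bound by nuclear factor I, was in none of the 4 windows and in 41.6% of all windows. Among the placed windows not shown, it occurred 1 time in that of Slc1a2, 1 time in an Aldoc window and 3 times in that of S100b. It was in neither the Aldh1l1 window nor another Aldoc window, so its absence from the 4 rests on which markers are shown. TTCNNNGAA, the pattern bound by STAT factors, occurred once in the Slc1a3 window and was in 7.04% of all windows. CCAAT occurred 3 times in the Slc1a3 window and was in 33.8% of all windows. TTGGC reads GCCAA on the other strand and so overlaps CCAAT, and a stretch GCCAAT counts for both.

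At P1 the glutamate transporters were both lower on average in Kdm6b-cKO. Slc1a3 encodes GLAST, the main glutamate transporter of early postnatal astrocytes and of radial glia. Slc1a3 was 72.3 FPKM in the lowest WT library, 89.7 at the median and 109 in the highest, and 23.2, 60.1 and 93.8 FPKM in Kdm6b-cKO. Of the 6 Kdm6b-cKO libraries 4 lay below every WT library, and the 2 lowest were the shallow libraries 0 and 1. By limma the log2 fold change came to -0.77 (standard error 0.30, limma p = 0.0226, adjusted p = 0.273; exact permutation p = 0.0195). Without the shallow libraries it was -0.22 (5 WT and 3 Kdm6b-cKO libraries, limma adjusted p = 0.591).

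Slc1a2 encodes GLT-1, which takes over most glutamate uptake as astrocytes mature. Its lowest, median and highest values at P1 were 5.55, 6.05 and 8.26 FPKM in WT and 2.72, 4.07 and 9.54 FPKM in Kdm6b-cKO. In 5 Kdm6b-cKO libraries Slc1a2 was below every WT library, and in library 5, the shallowest of all, it was above every WT library. This was a log2 fold change of -0.56 (standard error 0.35, limma p = 0.133, adjusted p = 0.482; exact permutation p = 0.0736). It was -0.78 without library 5 and -0.90 without all 4 shallow libraries (limma adjusted p = 0.0995), but -0.26 with the receptor split as a term of the fit (limma adjusted p = 0.816).

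Of the connexins at P1, Gja1 was lower at an unadjusted p under 0.05 and Gjb6 was not, and the difference between them was not tested. Gja1 encodes connexin 43, which with connexin 30, the product of Gjb6, forms the gap junctions between astrocytes. Gja1 was 15.5, 31.0 and 35.5 FPKM (lowest, median and highest) in WT and 4.01, 14.0 and 22.7 FPKM in Kdm6b-cKO. WT averaged 28.0 ± 8.00 FPKM (SD, n = 6) and Kdm6b-cKO 13.5 ± 7.11 FPKM (SD, n = 6). Of the WT libraries 4 lay above every Kdm6b-cKO library and 3 Kdm6b-cKO libraries lay below every WT library. On the log2 scale Kdm6b-cKO differed by -1.20 (standard error 0.39, limma p = 0.0081, adjusted p = 0.209; exact permutation p = 0.0152), and -0.85 without the shallow libraries.

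Gjb6 rises late in astrocyte development, and its P1 values rest on few reads. They stood for about 6 to 17 reads per WT library and 0 to 35 per Kdm6b-cKO library. Gjb6 was 1.21, 3.59 and 4.79 FPKM in WT, while in Kdm6b-cKO it was listed at 0 in library 0, at 0.630 FPKM in library 1, and at 4.03 to 6.54 FPKM in the other 4. In Kdm6b-cKO, 3 libraries were therefore above every WT library and 2 below every WT library. The log2 fold change of -0.54 (standard error 0.93, limma adjusted p = 0.798) turned to 0.99 without the shallow libraries (limma adjusted p = 0.184) and to 0.32 without library 0 alone, and was -0.01 with the receptor split as a term.

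Aqp4, the water channel of astrocyte endfeet, had the most negative log2 fold change of the 10 at P1. It was 3.06, 4.85 and 7.45 FPKM in WT and 0.488, 1.42 and 6.36 FPKM in Kdm6b-cKO, for about 12 to 91 and 2 to 34 reads. In 5 of the 6 Kdm6b-cKO libraries Aqp4 was below every WT library, and the exception was again the shallow library 5, with about 6 reads. The fitted log2 fold change was -1.47 (standard error 0.55, limma p = 0.0172, adjusted p = 0.247; exact permutation p = 0.0173). It was -1.85 without library 5 and -1.55 without all shallow libraries (limma adjusted p = 0.0647).

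Gfap, the intermediate filament protein of astrocytes, was the 1 marker whose genotypes did not overlap at P1. It was 13.5, 18.8 and 23.3 FPKM in WT and 2.38, 10.0 and 12.7 FPKM in Kdm6b-cKO. Every Kdm6b-cKO value was under every WT value, as for 0.683% of all genes tested, and no marker was apart in the other direction (0.603% of all genes). WT averaged 18.4 ± 4.45 FPKM (SD, n = 6) and Kdm6b-cKO 8.72 ± 4.31 FPKM (SD, n = 6), with a log2 fold change of -1.25 (standard error 0.40, limma p = 0.00677, adjusted p = 0.203; exact permutation p = 0.00216, the smallest possible with 6 against 6). It was -1.30 without the shallow libraries, and with each library weighted by its depth it was -1.42 and was called (limma adjusted p = 0.0393). In that weighted fit 403 of all 16250 genes were called.

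S100b encodes a calcium-binding protein of astrocytes and of cells of the oligodendrocyte lineage, and had the lowest median of the 10 at P1. It was listed at 0 in WT library 4 and in Kdm6b-cKO library 5 and otherwise at 1.49 to 3.14 FPKM in WT and 0.241 to 2.01 FPKM in Kdm6b-cKO. At most 11 reads stood behind any of these values. By limma the log2 fold change came to -0.96 with a standard error of 0.97 (limma adjusted p = 0.659), and leaving out 1 library gave -1.69 to -0.42. Without the shallow libraries, which include both libraries at 0, it was -1.53 (limma adjusted p = 0.139; exact permutation p = 0.0179, the smallest possible for 5 against 3), and with the receptor split as a term -1.85 (limma adjusted p = 0.523).

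The metabolic enzymes were the exceptions, with positive values at P1. Aldoc encodes aldolase C, a brain form of the glycolytic enzyme, and Aldh1l1 a folate enzyme used to mark astrocytes. Aldoc was 48.0, 55.1 and 108 FPKM in WT and 22.3, 102 and 217 FPKM in Kdm6b-cKO. Its 2 lowest Kdm6b-cKO values were those of the shallow libraries 0 and 1, below every WT library, and its 2 highest, libraries 2 and 3, were above every WT library. This was a log2 fold change of 0.37 (standard error 0.46, limma adjusted p = 0.716), and 1.25 without the shallow libraries (limma adjusted p = 0.0651). Aldh1l1 was 9.95, 13.6 and 16.2 FPKM in WT and 6.59, 16.7 and 25.4 FPKM in Kdm6b-cKO, for a fitted change of 0.21 (standard error 0.31, limma adjusted p = 0.761), which was -0.11 without the shallow libraries.

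Sox9, a transcription factor of radial glia and of the switch to making glia, had overlapping groups at P1. It was 6.19, 13.1 and 17.1 FPKM in WT and 3.94, 8.42 and 17.4 FPKM in Kdm6b-cKO. On the log2 scale Kdm6b-cKO differed by -0.51 (standard error 0.38, limma adjusted p = 0.545).

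Batch and genotype were partly confounded at P1, with 2 WT and 5 Kdm6b-cKO libraries on the low side of the receptor split and 4 WT and 1 Kdm6b-cKO library on the high side. On the low side 8 of the 10 markers were lower in Kdm6b-cKO, with a median log2 difference of -0.73. There Aqp4 alone reached the smallest exact permutation p that this size allows (difference -1.88, p = 0.0476), and Gfap differed by -1.74 (exact permutation p = 0.0952). On the high side, where the 1 Kdm6b-cKO library is the shallow library 5, 5 of 10 were lower and the median was -0.07. With the split as a term of the fit, 1 marker was lower at an unadjusted p under 0.05 in place of 4. Over all genes, 1118 of 16250 were lower at that p in this fit. The marker was Gfap at -1.23 (limma adjusted p = 0.412). Gja1 was then at -0.99 (limma adjusted p = 0.458), Slc1a3 at -0.74 (adjusted p = 0.473) and Aqp4 at -1.05 (adjusted p = 0.538).

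**Figure D2:**
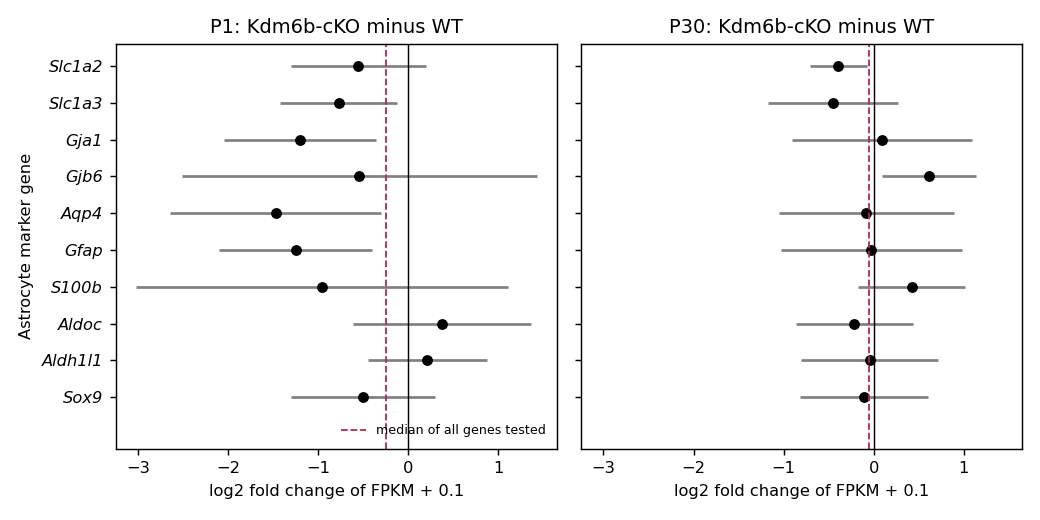
Log2 fold change of FPKM + 0.1, Kdm6b-cKO minus WT, for each marker at P1 (left) and P30 (right); points are limma estimates from 6 libraries per genotype, grey lines their 95% confidence intervals, the black line marks 0 and the red dashed line the median of all genes tested. At P1 the intervals of Gfap, Gja1, Aqp4 and Slc1a3 lie below 0, and at P30 the interval of Slc1a2 lies below 0 and that of Gjb6 above it.

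At P30, when cortical astrocytes are largely mature, 7 of the 10 markers had a negative log2 fold change, against 54.8% of the 13289 genes tested, and their median of -0.06 was close to that of all genes (-0.05). Slc1a2 was lower at an unadjusted p under 0.05, against 7.37% of all genes, and Gjb6 higher, against 5.34%. None of the 10 was called, while 30 genes were called lower (0.226%) and 7 higher (0.0527%). The exact permutation test gave 0 genes past the adjustment at P30 (smallest adjusted p = 0.111) and 1804 at an unadjusted p under 0.05. Its smallest possible p of 0.00216 again limits what can pass, so this 0 does not bear on the limma calls. No marker's genotypes were apart, against 1.05% of all genes with every Kdm6b-cKO library below WT and 0.888% with every one above.

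**Figure D3:**
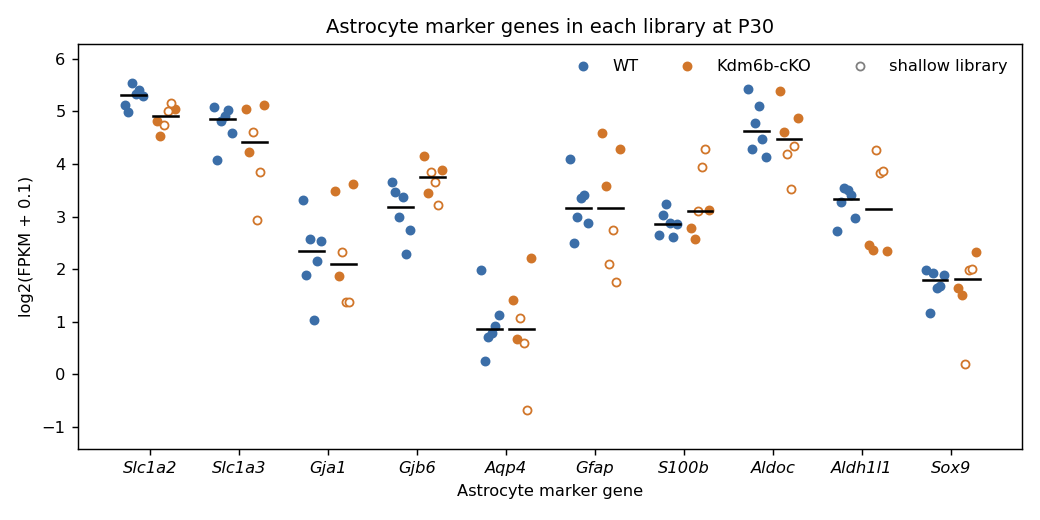
Level of each astrocyte marker in every P30 library, as log2(FPKM + 0.1), with colours, bars and open points as in the plot of the P1 libraries. The genotypes overlap for all 10 markers, and the 3 shallow Kdm6b-cKO libraries lie above every other library for Aldh1l1 and among the lowest for Gfap.

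Slc1a2 had the highest median of the 10 markers at P30 in both genotypes, though not the highest value in every library. It was 31.5, 39.7 and 46.4 FPKM in WT and 23.1, 30.3 and 35.5 FPKM in Kdm6b-cKO. In Kdm6b-cKO, 3 libraries lay below every WT library, and 4 WT libraries lay above every Kdm6b-cKO library. WT averaged 39.1 ± 5.34 FPKM (SD, n = 6) and Kdm6b-cKO 29.8 ± 4.61 FPKM (SD, n = 6), with a log2 fold change of -0.39 (standard error 0.15, limma p = 0.0192, adjusted p = 0.292; exact permutation p = 0.0152). The difference was -0.34 among the 5 WT and 3 Kdm6b-cKO libraries with high 45S RNA (exact permutation p = 0.0893) and -0.31 among the 1 WT and 3 Kdm6b-cKO libraries with low 45S RNA. Over all 25 alternative fits Slc1a2 was at -0.54 to -0.32 (limma adjusted p from 0.0136 to 0.486), under 2-fold and called in none.

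Gjb6 differed in the opposite direction. It was 4.81, 9.03 and 12.5 FPKM in WT and 9.20, 13.4 and 17.7 FPKM in Kdm6b-cKO, for 71 to 187 and 34 to 231 reads. In Kdm6b-cKO, 3 libraries lay above every WT library and 3 WT libraries below every Kdm6b-cKO library. The fitted log2 fold change was 0.62 (standard error 0.24, limma p = 0.0242, adjusted p = 0.317; exact permutation p = 0.0346). With the 45S split as a term of the fit it was 0.48 (limma adjusted p = 0.193).

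Of the markers that were lower at P1, Gja1, Aqp4 and Slc1a3 had intervals that include 0 at P30. Gja1 was 1.94 to 9.80 FPKM in WT and 2.48 to 12.2 FPKM in Kdm6b-cKO, for a fitted log2 fold change of 0.09 (standard error 0.46). Aqp4 was 1.08 to 3.87 and 0.526 to 4.52 FPKM (-0.08, standard error 0.45). Slc1a3 was 16.8 to 34.0 and 7.54 to 34.8 FPKM (-0.45, standard error 0.33), and with the 45S split as a term it was at -0.72 (limma adjusted p = 0.123).

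Gfap and Aldh1l1 at P30 split the Kdm6b-cKO libraries rather than the genotypes. Gfap was 5.53, 8.94 and 16.9 FPKM in WT, 11.8 to 23.9 FPKM in the 3 deeper Kdm6b-cKO libraries and 3.27 to 6.56 FPKM in the 3 shallow ones. Aldh1l1 went the other way, at 6.48, 10.0 and 11.5 FPKM in WT, 4.96 to 5.38 FPKM in the deeper and 14.2 to 19.2 FPKM in the shallow Kdm6b-cKO libraries. The deeper Kdm6b-cKO libraries were thus all below WT for Aldh1l1 and the shallow ones all above. Over all libraries the log2 fold changes were -0.03 for Gfap (standard error 0.47) and -0.05 for Aldh1l1 (standard error 0.35). Without the shallow libraries they were 0.95 for Gfap (exact permutation p = 0.0357) and -0.85 for Aldh1l1 (exact permutation p = 0.0119, the smallest possible). The limma adjusted p of Gfap in this fit was above 0.05. That of Aldh1l1 was 0.0357, but its change was under 2-fold. Neither was called, while 415 of 13250 genes were. Among the 8 libraries with high 45S RNA the differences were -0.83 for Gfap (exact permutation p = 0.0536) and 0.66 for Aldh1l1 (exact permutation p = 0.0179, the smallest possible). The 3 shallow Kdm6b-cKO libraries are also the 3 with high 45S RNA, so depth and this batch cannot be told apart within Kdm6b-cKO.

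The remaining markers overlapped at P30. S100b was 6.01 to 9.33 FPKM in WT and 5.87 to 19.4 FPKM in Kdm6b-cKO, with the 2 highest values in the shallow libraries 3 and 4 (log2 fold change 0.42, standard error 0.28; with the 45S split as a term 0.66, limma adjusted p = 0.0801). Aldoc was 17.5 to 43.1 and 11.4 to 41.7 FPKM (-0.21, standard error 0.30; with the 45S split as a term -0.52, limma adjusted p = 0.128). Sox9 was 2.14 to 3.86 and 1.04 to 4.89 FPKM (-0.10, standard error 0.33). Within the high 45S libraries 7 of the 10 markers were lower in Kdm6b-cKO (median -0.34), and so were 7 of 10 within the low 45S libraries (median -0.30), while over the 6 WT and 3 deeper Kdm6b-cKO libraries 3 of 10 were lower (median 0.18).

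The genotype effect was then compared between the ages in one fit of all 24 libraries, as the P30 effect less the P1 effect. This difference was positive for 8 of the 10 markers, against 56.7% of the 12644 genes tested at both ages, with a median of 0.78 against 0.13 over all genes. It was 1.39 for Aqp4 (standard error 0.71, limma adjusted p = 0.409), 1.30 for Gja1 (standard error 0.64, adjusted p = 0.382) and 1.22 for Gfap (standard error 0.64, adjusted p = 0.417). None of the 10 was under 0.05 before adjustment, against 13.2% of all genes, or passed it, with adjusted p from 0.382 to 0.851, and 1 gene in all did (0.00791%). For Gfap the difference passed without the shallow libraries (2.24, adjusted p = 0.0251) and with limma's library weights (1.96, adjusted p = 0.0376). Over all genes 429 of 12337 and 521 of 12644 passed in these 2 fits. Leaving out the shallow libraries moved the Gfap effect at P30 to 0.95, and at P1 to -1.30.

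The order of the markers differed between the tables of the ages, which were normalized separately, so the orders are described and were not tested. In WT at P1 the median level was highest for Slc1a3, followed by Aldoc, Gja1, Gfap, Aldh1l1, Sox9, Slc1a2, Aqp4, Gjb6 and S100b. Aldoc and Gja1 were the only neighbours in this order whose 6 WT libraries did not overlap. In Kdm6b-cKO at P1 Aldoc stood above Slc1a3, Aldh1l1 came next, and all neighbours overlapped. In WT at P30 the order was Slc1a2, Slc1a3, Aldoc, Aldh1l1, Gjb6, Gfap, S100b, Gja1, Sox9 and Aqp4, and Aldoc and Aldh1l1 were the only neighbours that did not overlap. Slc1a2, seventh at P1 in WT, was thus first at P30, and in Kdm6b-cKO it moved from eighth to first.

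**Figure D4:**
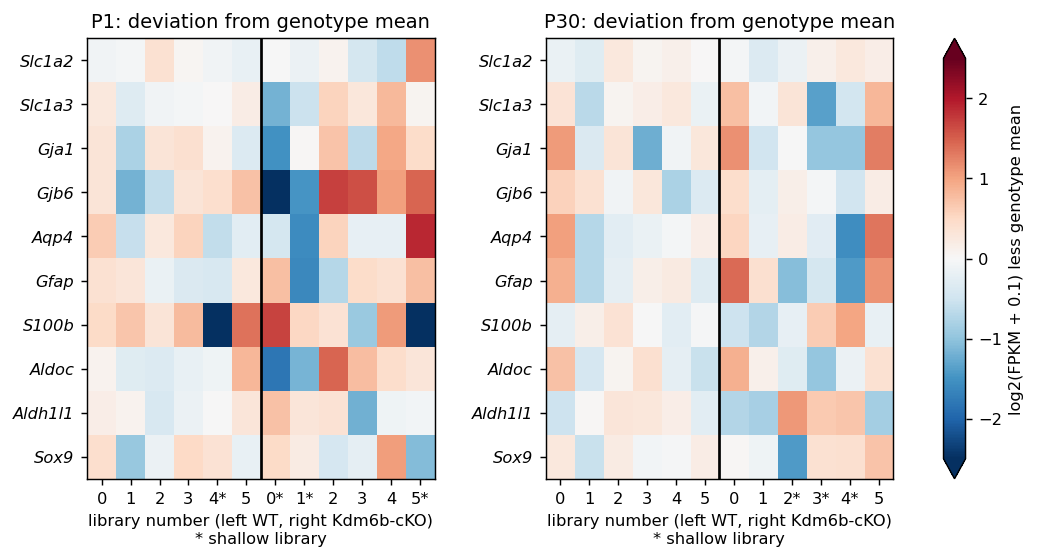
Deviation of each library from the mean of its genotype, in log2(FPKM + 0.1), for each marker at P1 (left) and P30 (right); columns are libraries 0 to 5 of WT and then of Kdm6b-cKO, with shallow libraries starred. At P30 WT 0 and Kdm6b-cKO 0 and 5 are above their genotype's mean for Gja1, Aqp4, Gfap and Aldoc, and below it for Aldh1l1.

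Some of the markers varied together between libraries of one genotype. For each gene the deviations from its genotype mean over the 12 libraries of an age were correlated with the mean deviation of the 10 markers, which each marker is itself part of and in which depth and batch are shared. At P1 Pearson's r was 0.70 to 0.78 for Slc1a3, Aqp4, Gja1, Aldoc and Gjb6, and between -0.04 and 0.01 for S100b, Sox9 and Aldh1l1. At P30 it was 0.67 to 0.74 for Gja1, Aldoc, Aqp4, Gfap and Slc1a3, -0.15 for S100b and -0.43 for Aldh1l1. Over the 45 pairs of markers the median r was 0.03 at P1 and 0.19 at P30, so the 10 did not move as 1 block. At P30, WT library 0 held the highest WT value of 7 markers, and Kdm6b-cKO libraries 0 and 5 the highest Kdm6b-cKO value of 3 and 4, and these are 3 of the 4 libraries with low 45S RNA. The genes outside the markers whose deviations were most like the profile were Cmtm6, Trib2, Cipc, Fadd and Minpp1 at P1 (r = 0.90 to 0.91) and Pdia4, Gm29443, Adal, Stk26 and Fgf12 at P30 (r = 0.87 to 0.89).

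Other genes of astrocytes, in 5 lists by function, showed P1 medians from -0.82 to 0.02. Of their 54 genes tested at P1, 41 had a negative log2 fold change, 8 were lower and 1 higher at an unadjusted limma p under 0.05, and 0 were called. Over all genes these shares were 63.2% negative, 7.77% lower and 6.7% higher. The median over the 54 was -0.39, against -0.25 over all genes. At P30, 35 of 50 were negative, 9 were lower and 2 higher, 0 were called, and the median was -0.20, against 54.8% negative, 7.37% lower, 5.34% higher and a median of -0.05 over all genes.

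In the transport and ion balance list the P1 median was -0.82, with 8 of 10 genes negative, against 63.2% of all genes. Kcnj10 and Slc7a11 were among them although their mean FPKM was higher in Kdm6b-cKO, where the lowest library of each was listed at 0. Atp1b2, the sodium pump subunit of astrocytes, was 29.7 to 69.5 FPKM in WT and 6.46 to 45.7 FPKM in Kdm6b-cKO, for a log2 fold change of -1.60 (limma adjusted p = 0.178). Slc6a11, a GABA transporter, was at -2.54, with 3.45 to 9.22 FPKM in WT and 0 to 12.1 FPKM in Kdm6b-cKO. The groups overlapped, their means were 5.95 and 2.90 FPKM, and values listed at 0 enter this log2 fold change through the added 0.1. At P30 Hepacam, an adhesion protein of astrocytes, was at -0.66 and Slc6a9, a glycine transporter, at -0.62.

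In the list of receptors and surface proteins all 11 genes were negative at P1, against 63.2% of all genes, with a median of -0.64. Among them F3, Ntsr2, Mertk and Lcat had higher mean FPKM in Kdm6b-cKO than in WT. The lowest Kdm6b-cKO library of each was listed at 0, which enters the log2 fold change through the added 0.1. Ttyh1, a membrane protein of radial glia and astrocytes, was 22.3 to 33.5 FPKM in WT and 10.9 to 22.7 FPKM in Kdm6b-cKO (-0.75, limma adjusted p = 0.208). Gpr37l1, an orphan receptor of astrocytes, was at -2.24, with 1.19 to 4.01 FPKM in WT and 0 to 7.62 FPKM in Kdm6b-cKO. Grm3, a metabotropic glutamate receptor, was at -2.07, with 12.7 to 26.8 FPKM in WT and 0 to 17.0 FPKM in Kdm6b-cKO. Both genes overlapped between the genotypes and were listed at 0 in Kdm6b-cKO, so the added 0.1 enters their log2 fold changes too. At P30 9 of 10 were negative with a median of -0.36, among them Grm3 at -0.65, Lcat, an enzyme that esterifies cholesterol, at -0.72, and Fgfr3, a growth factor receptor, at -0.54. Grm3 was thus lower at an unadjusted p under 0.05 at both ages.

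The metabolism list had a median of -0.20 at P1, with Ppp1r3c, which promotes glycogen storage, at -2.37 (mean 5.02 FPKM for WT against 1.92 for Kdm6b-cKO, whose lowest library was listed at 0), and of -0.18 at P30, with Acsbg1, an acyl-CoA synthetase, at -1.31. In the list of secreted proteins (medians -0.45 and -0.35), Gpc5, a glypican, was at -1.93 at P1 (2.72 to 8.20 FPKM in WT, 0 to 4.50 FPKM in Kdm6b-cKO) and -1.41 at P30, and Cspg5, a chondroitin sulfate proteoglycan, at -0.42 at P30. The transcription factors had medians near 0 (0.02 and 0.06). Among them Id3 was at -1.43 and Id2 at 1.14 at P1, both inhibitors of basic helix-loop-helix factors. At P30 Hes5, a target of Notch signalling, was at -0.74, Lhx2 at 0.63 and Zbtb20 at 0.45. The adjusted p of the genes named from these lists was 0.169 to 0.36 (limma).

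**Figure D5:**
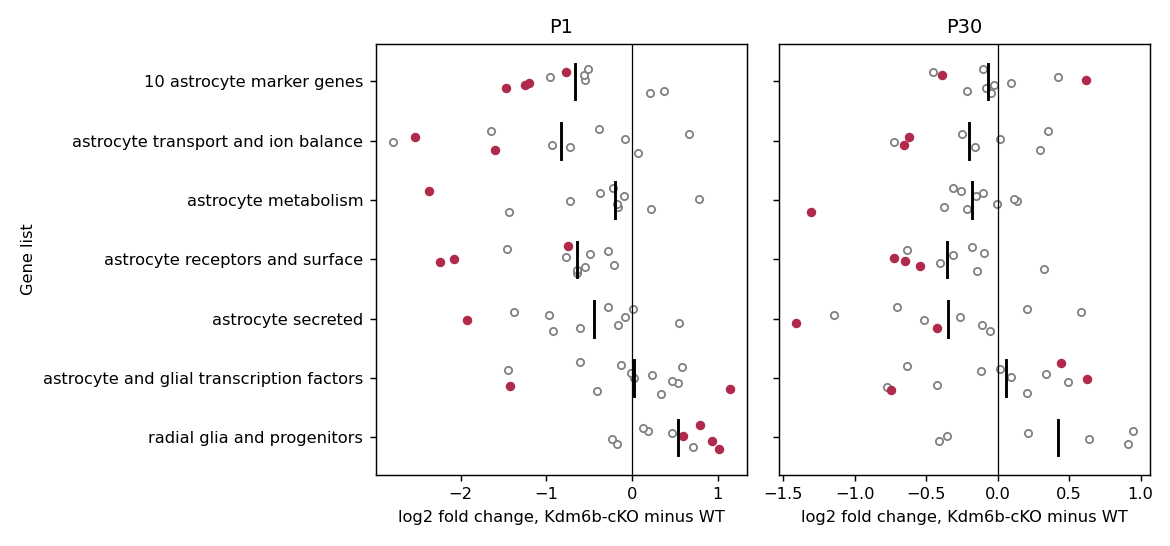
Log2 fold change, Kdm6b-cKO minus WT, of the 10 markers, of 5 lists of other astrocyte genes and of radial glia and progenitor genes at P1 (left) and P30 (right); each point is a gene, filled where the unadjusted limma p was under 0.05, and bars are list medians. At P1 the medians of the markers and of the transport, receptor and secreted lists lie between -0.82 and -0.45, and that of the radial glia list at 0.53.

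Markers of other cells were read in the same fits, and none of them was called at P1. There, 8 of 10 radial glia and progenitor genes were positive, with a median of 0.53, and 4 were higher at an unadjusted limma p under 0.05, against 6.7% of all genes. These were Nes (0.93), Vim (0.79), Pax6 (0.59) and Eomes (1.01). The summed level of the 10 radial glia and progenitor genes was 945 to 1814 FPKM in WT and 1574 to 3995 FPKM in Kdm6b-cKO, of which Fabp7, a fatty acid binding protein of radial glia, made up 766 to 1638 and 1318 to 3652 FPKM (limma adjusted p = 0.372). The summed level of the 10 astrocyte markers was 192 to 299 and 107 to 359 FPKM. All 6 oligodendrocyte precursor genes tested were negative at P1 (median -1.01), and 8 of 10 microglia genes were (median -0.60), against 63.2% of all genes. Of the 11 glutamatergic neuron genes, 7 were negative at P1 (median -0.08) and 7 at P30 (median -0.26). Among them Slc17a7, a vesicular glutamate transporter, was at -1.76 at P1 (limma adjusted p = 0.180), and Slc17a6, another, was called lower at P30 (-2.98, limma adjusted p = 0.0408), where Kdm6b-cKO libraries were listed at 0 to 0.923 FPKM. At P30 all 9 oligodendrocyte genes were negative (median -1.14, 2 called), against 54.8% of all genes, and all 8 GABAergic neuron genes tested were positive (median 1.56). Gad1, an enzyme of GABAergic neurons, most of which arise outside the Emx1 lineage, was 22.5 to 39.5 FPKM in WT and 13.3 to 35.1 FPKM in Kdm6b-cKO at P1, and 2.16 to 23.5 and 11.0 to 23.7 FPKM at P30. Microglia genes summed to 79.3 to 171 FPKM in WT and 43.3 to 169 FPKM in Kdm6b-cKO at P1. At P30 they summed to 13.3 to 50.5 and 20.4 to 60.1 FPKM. Endothelial and mural genes summed to 94.4 to 161 and 70.2 to 158 FPKM at P1. GABAergic neuron genes summed to 663 to 1453 and 897 to 2794 FPKM at P1, and glutamatergic neuron genes to 620 to 928 and 726 to 1380 FPKM. Genes of cells mostly outside the Emx1 lineage were thus well above 0 at P1. The part of these cell types in the differences of the astrocyte markers was not tested.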

How the data were processed

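SUN1-GFP-positive cortical nuclei were sorted and their RNA sequenced. The authors aligned reads to mm9 with HISAT2 and made the deposited FPKM tables with Cuffdiff, 1 table per age, so levels were not compared between ages. Versions are not given in the sources used here. Values in FPKM carry no read totals, so depth was estimated from the steps of 1 read. The deposited tables of the authors' own comparisons (group FPKM, fold changes, p and q values) were not used.

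Table columns name genotype, age and a number from 0 to 5, and were assigned by group. Log2(FPKM + 0.1) was fitted with limma 3.58.1 in R 4.3.3 (mean-variance trend, 6 libraries per group), keeping genes that averaged 1 FPKM or more at the age. Tests were two-sided, p-values were adjusted by Benjamini-Hochberg across every gene kept, and calls took an adjusted p below 0.05 with more than a 2-fold change. Exact permutation tests enumerated every split of the 12 libraries of an age. The difference between ages was fitted over all 24 libraries. Scripts were tested on simulated data. Alternatives changed the pseudocount, filter, scaling, variance model, library weights, block, batch term and libraries. The markers were named by symbol, and named genes of other lists are those at an unadjusted p under 0.05. The markers and lists were chosen with earlier results of these data known.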

Additional observations from a re-analysis of the deposited data

Results flagged for a closer look

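Of 40 groups of 6 libraries (10 markers, 2 genotypes, 2 ages), 4 held a library far from the others by Dixon's 95% ratio test, and chance gives about 1 in 20 groups. Aldoc in WT library 5 at P1 was 108.1 FPKM against 65.0 in the next library (ratio 0.718). Slc1a2 and Aqp4 in Kdm6b-cKO library 5 at P1, the shallowest library, were 9.54 FPKM against 4.56 (ratio 0.730) and 6.36 FPKM against 2.46 (ratio 0.664). Aqp4 in WT library 0 at P30 was 3.87 FPKM against 2.08 (ratio 0.641).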

How the results depend on the processing

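The library numbers did not pair the samples: same-numbered libraries correlated at -0.18 to 0.23 at P1 and -0.30 to 0.33 at P30. With the replicate block 0 genes were called at P1, 0 at P30 (37 without it) and 0 for the age difference (1 without it). The cause of the changes below was not tested.

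At P1 the number of all genes called, 0 in the report, was 1 with no trend, 403 with depth weights and 96 without shallow libraries, and leaving out 1 library gave 0 to 51 (51 without Kdm6b-cKO 4). Of the markers, 1 was called with depth weights. With the batch term 1 of the 10 was lower at an unadjusted p, against 1118 of 16250 genes. Markers higher at an unadjusted p numbered 1, 1 and 2 with library weights, depth weights and without shallow libraries. Over all genes in the same fits these were 1472 and 1850 of 16250, and 1994 of 14294. Gjb6 turned to 0.41, 0.76 and 0.99 in those fits, S100b to 0.036 under quantile normalization, and Aldh1l1 to -0.015 with depth weights and -0.11 without shallow libraries.

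At P30 the number of all genes called, 37 in the report, was 530 with library weights, 62 with depth weights, 550 with the batch term and 415 without shallow libraries, and leaving out 1 library gave 2 to 43 (2 without WT 2, 3 or 5). Markers lower at an unadjusted p numbered 2, 3 and 2 of 10 with library weights, the batch term and without shallow libraries. Over all genes these were 2322 and 2094 of 13289, and 2025 of 13250. Markers higher numbered 2 with library weights and 2 without shallow libraries, against 1816 of 13289 and 1504 of 13250 genes. Leaving out 1 library gave 0 to 1 marker lower and 0 to 1 higher. Without shallow libraries Slc1a3 turned to 0.048, Aqp4 to 0.47, Gfap to 0.95, S100b to -0.051, Aldoc to 0.26 and Sox9 to 0.11. With library weights Aqp4 turned to 0.34, Gfap to 0.81 and Aldoc to 0.30, and with depth weights Aqp4 to 0.071 and Gfap to 0.36. With the batch term Gja1 turned to -0.34 and Aldh1l1 to 0.37. Gfap was 0.0014 with a pseudocount of 1 and 0.064 under quantile normalization.

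For the age difference, all genes called (1 in the report) numbered 10 with a pseudocount of 1, 2 with no filter, 3 at 5 FPKM, 28 under quantile normalization, 0 with no trend, 521 with library weights, 235 with depth weights and 429 without shallow libraries, and 0 to 92 when 1 library was left out (92 without Kdm6b-cKO 4 at P1). Of the markers 1 passed with library weights and 1 without shallow libraries. Their median was 0.24 at 5 FPKM, where 6 were tested, and 0.25 with depth weights. Slc1a2 turned to -0.015 (quantile) and -0.073 (batch term), Gjb6 to -0.076 (depth weights) and -0.25 (without shallow libraries), and Aldh1l1 to 0.24 (batch term). Leaving out 1 library gave -0.89 to 0.32 for Gjb6 at P1, and at P30 -0.16 to 0.31 for Gja1, -0.35 to 0.23 for Aqp4, -0.31 to 0.26 for Gfap, -0.26 to 0.12 for Aldh1l1 and -0.25 to 0.18 for Sox9.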
